A study of Homo sapiens with 12 samples.

Results

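This account concerns 10 genes that code for brakes on the mitogen-activated protein kinase (MAPK) cascades, namely the dual-specificity phosphatases DUSP1, DUSP4, DUSP5, DUSP6 and DUSP10, the Sprouty proteins SPRY1, SPRY2 and SPRY4, and the Sprouty-related proteins SPRED1 and SPRED2. They were chosen by name from a table of 60664 genes, and all 10 were present once and were among the 17544 genes with enough reads to be tested. Messenger RNA was sequenced from MDA-MB-231, an established line of human triple-negative breast cancer cells, here of wild-type genotype with no engineered change. The cells grew in serum-containing medium of pH 7.4 and were then kept for 24 h at pH 7.4, pH 6.9 or pH 6.4, with 4 libraries in each group. The samples are labelled pH 6.9 for the intermediate medium while the protocol gives pH 6.7, and the sample labels are followed here. All groups share the same line, the same high-glucose medium and the same culture conditions, so the results hold for this line only. The repeats are not stated to be separate cultures, so p-values measure the spread between these libraries, which may be technical.

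Growth factor receptors act through RAS and a chain of kinases that ends in ERK, and active ERK switches on genes whose products slow the same chain. DUSP proteins remove phosphate from MAPKs: DUSP6 acts on ERK in the cytoplasm, DUSP5 on ERK in the nucleus, DUSP4 and DUSP1 act in the nucleus on several MAPKs, and DUSP10 acts on the stress kinases p38 and JNK rather than on ERK. Sprouty and SPRED proteins act higher up, between the receptor and RAF, and SPRED proteins bring the RAS inhibitor neurofibromin to the membrane. DUSP10 is therefore described apart from the phosphatases that act on ERK.

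Libraries held from 21060767 to 50643233 counts, and the 10 genes from 420 to 25724 counts in a library. Levels are given in CPM, counts scaled to a common library size, after correction by the trimmed mean of M values (TMM). Repeat 1 at pH 7.4 held the fewest detected genes, 17841, and lay at -144.67 on the first principal component, where the other libraries lay between -7.24 and 36.4. Repeat 3 at pH 6.4 lay at -2.63 on the second component while the other pH 6.4 libraries lay between 39.5 and 67.0, and on the third component repeats 1 and 2 lay between -56.5 and 10.97 and repeats 3 and 4 between 13.3 and 33.2. VIM, KRT8, KRT18, CD44 and EGFR, which mark this line, were abundant (VIM, CD44 and EGFR rose and KRT8 and KRT18 fell at pH 6.4), and ESR1 and PGR, absent from triple-negative cells, did not exceed 0.278 and 0.0236 CPM. Summed markers of leukocytes, endothelium, liver and muscle came to 6.49 to 13.2 CPM at pH 7.4, 5.12 to 8.56 at pH 6.9 and 7.01 to 9.94 at pH 6.4, nearly all of it PECAM1, with CD3E at 0. ERBB2, EPCAM and CDH1 were also listed as low in this line. CDH1 did not exceed 3.16 CPM, but ERBB2 and EPCAM reached 97.6 and 24.3 CPM and were thus clearly detected. In such bulk RNA, fewer cells of a kind and less RNA per cell cannot be told apart.

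The stretches just before the starts of DUSP1, SPRY2 and SPRY1 are shown because SPRY2 rose from pH 7.4 to pH 6.4 while DUSP1 and SPRY1 did not pass, and because these windows overlap no annotated exon. Each is the 250 bases before the outermost RefSeq start, read 5′ to 3′ on the gene's strand, from GRCh38.p14. They lie at chr5:172771196-172771445 on the minus strand for DUSP1, chr13:80341127-80341376 on the minus strand for SPRY2 and chr4:123396545-123396794 on the plus strand for SPRY1. Capitals mark matches on either strand to the cyclic AMP response element (CRE) TGACGTCA, its core TGACG, the ETS core CCGGAA and the TATA box TATAAA.
DUSP1: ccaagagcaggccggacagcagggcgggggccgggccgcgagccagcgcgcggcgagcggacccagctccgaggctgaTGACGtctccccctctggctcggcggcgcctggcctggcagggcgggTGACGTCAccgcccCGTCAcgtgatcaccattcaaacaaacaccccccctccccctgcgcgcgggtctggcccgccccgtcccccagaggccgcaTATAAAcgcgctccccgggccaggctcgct
SPRY2: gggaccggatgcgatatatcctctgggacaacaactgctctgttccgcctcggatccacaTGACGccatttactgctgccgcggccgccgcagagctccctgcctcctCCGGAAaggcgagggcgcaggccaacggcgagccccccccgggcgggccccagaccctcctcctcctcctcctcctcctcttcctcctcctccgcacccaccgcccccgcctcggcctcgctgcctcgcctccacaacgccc
SPRY1: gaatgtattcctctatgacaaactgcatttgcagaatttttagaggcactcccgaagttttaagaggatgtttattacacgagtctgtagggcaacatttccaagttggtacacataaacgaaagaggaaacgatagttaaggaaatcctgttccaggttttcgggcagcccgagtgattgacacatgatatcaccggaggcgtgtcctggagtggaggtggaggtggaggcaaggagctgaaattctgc

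RefSeq windows were matched for 8 of the 10 genes, without DUSP4 and DUSP5. The windows of DUSP6 and SPRED1 lay wholly within annotated exons. Those of SPRY4, DUSP10 and SPRED2 shared 170, 87 and 38 bases with annotated exons. Where a gene had several windows, only that of the outermost start was used. DUSP1 alone held a full CRE, which begins 125 bases before the start, and a TATA box, which begins 30 bases before it. A full CRE was in 1.65% and a TATA box in 10.7% of all 35116 windows of that length. The ETS core was in 1 of the 8, SPRY2, 142 bases before the start, and in 14.5% of all windows. CRE cores, which the full site contains, were in DUSP1, SPRY2 and SPRY4, or 3 of 8, and in 21.2% of all windows. Neither the AP-1 site TGANTCA nor the CArG box was in any of the 8, where 6.57% and 1.16% of all windows held them. A match describes letters in this window only.

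At pH 6.4 against pH 7.4, 6 of the 10 genes rose, 1 fell and 3 did not pass. The 6 that rose were DUSP5, SPRY4, SPRY2, SPRED1, DUSP6 and DUSP4, by 1.42-fold to 2.34-fold, and DUSP10 fell 1.78-fold. Of all 17544 genes 30.3% passed in this comparison, 15.6% as higher and 14.7% as lower, at an adjusted p under 0.05 in edgeR's quasi-likelihood test. The libraries of the media did not overlap for 6 of the 10, and for 27.9% of all genes. As higher at pH 6.4, 5 of the 10 and 14.4% of all genes did not overlap. The median log2 change of the 10 was 0.59, beside -0.00 for all genes. Summed over the 10 genes, the level ran from 935 to 1083 CPM at pH 7.4. It ran from 1059 to 1180.2 at pH 6.9 and from 1335 to 1631 at pH 6.4. DUSP4 made up the largest part of this sum, with a mean of 380 CPM at pH 7.4 and 541 CPM at pH 6.4.

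**Figure D1:**
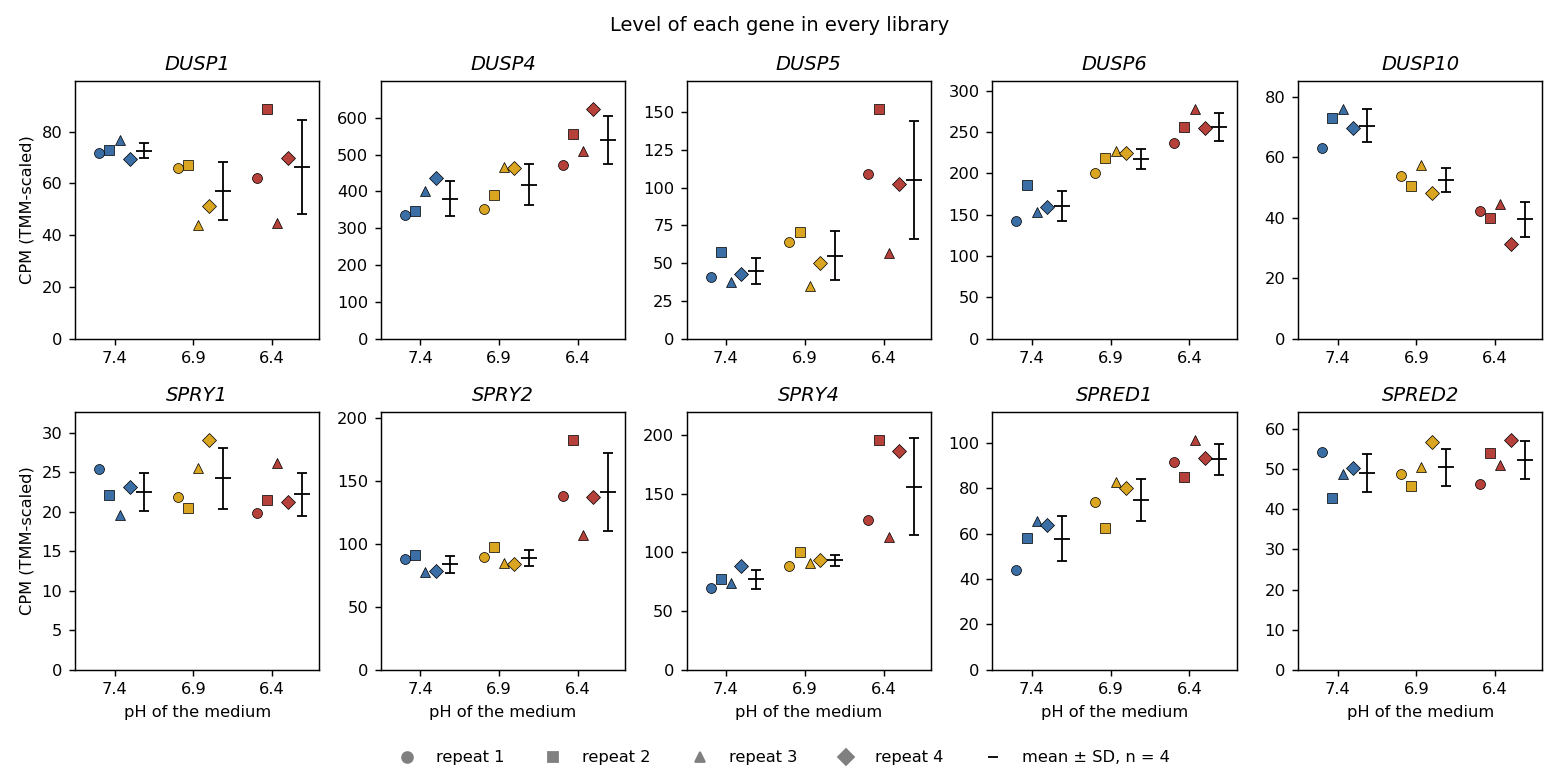
TMM-scaled CPM (vertical axes from 0) of the 10 genes in each of the 12 libraries, by pH of the medium. Symbols mark repeats 1 to 4, and the black bar and whiskers give the mean and SD of the 4 libraries; DUSP4, DUSP6, SPRY2, SPRY4 and SPRED1 lie higher in all pH 6.4 libraries than in any pH 7.4 library, and DUSP10 lower.

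DUSP6 (ENSG00000139318, chromosome 12 from 89347232 to 89353271 on the minus strand of GRCh38, here by GENCODE 29), the cytoplasmic ERK phosphatase, had 143, 187, 154 and 159 CPM in repeats 1 to 4 at pH 7.4. It had 200.2, 219, 227 and 224 CPM at pH 6.9, and 236, 256, 278 and 255 CPM at pH 6.4. The 3 groups did not overlap, and every more acid group lay above the less acid one. From pH 7.4 to pH 6.4 its mean of 161 ± 18.6 CPM became 257 ± 17.2 CPM (SD, n = 4), 1.60 times as much (edgeR adjusted p = 0.000113, log2 0.68, SE 0.09). On the log2 scale repeats 1 and 2 gave a rise of 0.58 and repeats 3 and 4 one of 0.78, fitted apart because the third component parted these sets. A difference between the sets passed for none of the 10 genes (interaction in edgeR, adjusted p of 0.968 or more in this comparison, lowest unadjusted p = 0.116). It passed for 0 of all genes tested, so this result does not single out the 10 genes or show that the sets agree. An antisense gene shares 1875 exonic bases with DUSP6, and as the sources used here do not give the strand setting of the count, reads of the pair may not be separated. That gene itself held at most 45 counts.

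DUSP5 (ENSG00000138166, chromosome 10 from 110497838 to 110511544), the nuclear ERK phosphatase, changed the most of the 10 and was also the most variable. It had 40.7, 57.5, 37.7 and 43.1 CPM at pH 7.4, 64.3, 70.9, 34.9 and 49.8 CPM at pH 6.9, and 109, 152, 56.8 and 102 CPM at pH 6.4. Repeat 3 at pH 6.4, with 56.8 CPM, fell just under the 57.5 CPM of repeat 2 at pH 7.4, so these groups overlapped by that library. The rise was 2.34-fold (log2 1.23, SE 0.26; edgeR adjusted p = 0.00283). Repeats 1 and 2 gave 1.41 and repeats 3 and 4 gave 0.99, with an adjusted p of 0.0712 there.

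DUSP4 (ENSG00000120875, chromosome 8 from 29333064 to 29350668), a nuclear phosphatase of several MAPKs, rose least of the 6. It had 335, 347, 401 and 438 CPM at pH 7.4, 352, 391, 465 and 463 CPM at pH 6.9, and 473, 555, 510.4 and 625 CPM at pH 6.4. The pH 6.4 libraries all lay above the rest, while those of the other media overlapped. Its rise from pH 7.4 to pH 6.4 was 1.42-fold (log2 0.51, SE 0.12; edgeR adjusted p = 0.00504), with 0.60 in repeats 1 and 2 and 0.45 in repeats 3 and 4, where the adjusted p was 0.0581.

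DUSP1 (ENSG00000120129, chromosome 5 from 172768090 to 172771195), an immediate early phosphatase of p38, JNK and ERK, did not pass in any comparison. It had 71.8, 72.9, 76.7 and 69.5 CPM at pH 7.4, 65.9, 67.0, 43.9 and 51.4 CPM at pH 6.9, and 61.9, 88.9, 44.9 and 70.0 CPM at pH 6.4. Its spread grew with acidity, from an SD of 2.99 CPM at pH 7.4 to 11.3 at pH 6.9 and 18.3 at pH 6.4, a difference in spread that was not tested. The change from pH 7.4 to pH 6.4 was -0.13 with a 95% interval from -0.52 to 0.26 (edgeR adjusted p = 0.617), and its sign turned, to 0.02, without repeat 3 at pH 6.4. Every pH 6.9 library lay below every pH 7.4 library, yet that change, -0.35 with an interval from -0.74 to 0.04, did not pass (adjusted p = 0.46).

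DUSP10 (ENSG00000143507, chromosome 1 from 221701424 to 221742176), whose product acts on p38 and JNK, was the only one of the 10 to fall. It had 63.1, 72.9, 76.0 and 69.5 CPM at pH 7.4, 53.7, 50.4, 57.3 and 48.0 CPM at pH 6.9, and 42.3, 39.9, 44.5 and 31.2 CPM at pH 6.4. The 3 groups stood in steps without overlap, the mirror image of DUSP6. From pH 7.4 to pH 6.4 the mean went from 70.4 to 39.4 CPM, and the gene fell by 0.83 on the log2 scale (SE 0.11; edgeR adjusted p = 0.000114). The change was -0.72 in repeats 1 and 2 and -0.93 in repeats 3 and 4.

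SPRY4 (ENSG00000187678, chromosome 5 from 142310427 to 142326455) and SPRY2 (ENSG00000136158, chromosome 13 from 80335976 to 80340951), inhibitors that act between receptor and RAF, both rose, whereas SPRY1 did not pass. SPRY4 had 69.6, 77.1, 73.9 and 88.5 CPM at pH 7.4, 88.6, 99.99, 90.6 and 93.4 CPM at pH 6.9, and 128, 196, 114 and 187 CPM at pH 6.4. Each more acid group lay above the next, though the highest library at pH 7.4 and the lowest at pH 6.9 were nearly equal. Its rise from pH 7.4 to pH 6.4 was 2.02-fold (log2 1.01, SE 0.15; edgeR adjusted p = 0.000275), with 1.15 within repeats 1 and 2 and 0.90 within repeats 3 and 4, where the adjusted p was 0.0511. The antisense gene SPRY4-AS1, which shares no exonic base with SPRY4, held 42 to 203 counts, at most 5.13% of the SPRY4 counts.

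SPRY2 had 87.8, 91.1, 77.8 and 78.3 CPM at pH 7.4, 89.3, 97.4, 84.6 and 84.4 CPM at pH 6.9, and 138, 183, 107 and 138 CPM at pH 6.4. The pH 7.4 and pH 6.9 groups overlapped and the pH 6.4 group lay above both. Its rise from pH 7.4 to pH 6.4 was 1.69-fold (log2 0.75, SE 0.13; edgeR adjusted p = 0.000663), with 0.85 within repeats 1 and 2 and 0.66 within repeats 3 and 4. SPRY1 (ENSG00000164056, chromosome 4 from 123396795 to 123403760) had 25.4, 22.2, 19.5 and 23.1 CPM at pH 7.4, 21.9, 20.5, 25.5 and 29.1 CPM at pH 6.9, and 19.9, 21.4, 26.2 and 21.3 CPM at pH 6.4. Its groups overlapped throughout, with a change from pH 7.4 to pH 6.4 of -0.02 and a 95% interval from -0.32 to 0.27, which lies below the estimates for SPRY2 and SPRY4. Whether the Sprouty genes differ from each other in their change was not tested.

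SPRED1 (ENSG00000166068, chromosome 15 from 38252326 to 38357249) rose and SPRED2 (ENSG00000198369, chromosome 2 from 65310851 to 65432637) did not pass. SPRED1 had 44.0, 58.1, 65.5 and 63.9 CPM at pH 7.4, 74.3, 62.4, 82.8 and 80.2 CPM at pH 6.9, and 91.5, 84.9, 102 and 93.4 CPM at pH 6.4. All pH 6.4 libraries lay above the others, and only repeat 2 at pH 6.9 lay within the range of pH 7.4. The rise from pH 7.4 to pH 6.4 was 1.60-fold (log2 0.68, SE 0.12; edgeR adjusted p = 0.00102), with 0.79 within repeats 1 and 2 and 0.60 within repeats 3 and 4. Repeat 1 at pH 7.4, the library with the fewest detected genes, held the lowest SPRED1 level of all, and without it and repeat 3 at pH 6.4 the rise was 0.53. SPRED2 stayed between 42.9 and 57.3 CPM in all 12 libraries, and its change from pH 7.4 to pH 6.4 was 0.09 with a 95% interval from -0.13 to 0.31.

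**Figure D2:**
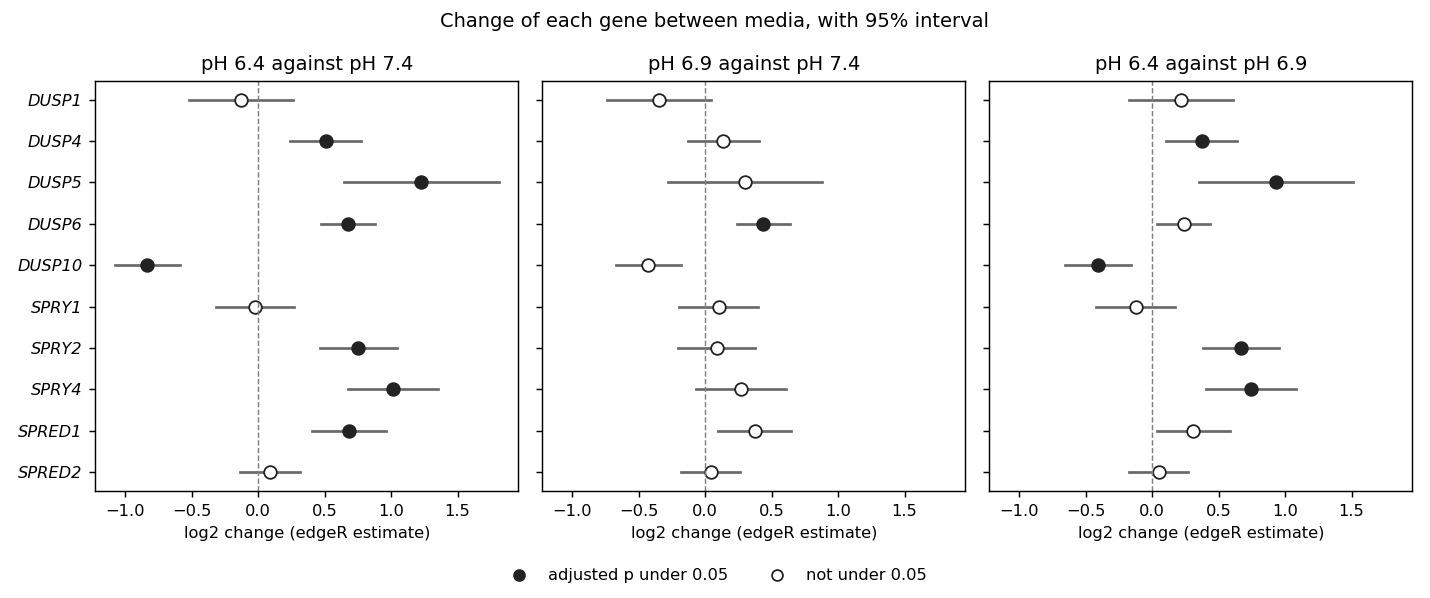
Log2 change of the 10 genes in the 3 comparisons, as the edgeR estimate (circles) with its 95% interval (lines). Filled circles passed an adjusted p under 0.05 over all 17544 genes; 7 are filled for pH 6.4 against pH 7.4, 1 for pH 6.9 against pH 7.4 and 5 for pH 6.4 against pH 6.9.

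Milder acid moved few of these genes past the threshold. At pH 6.9 against pH 7.4, 1 of the 10, DUSP6, rose and none fell, where 0.724% of all genes passed, 0.313% as higher and 0.410% as lower. DUSP6 reached 218 ± 12.2 CPM (SD, n = 4), 1.35 times its pH 7.4 mean (edgeR adjusted p = 0.0371, log2 0.44, SE 0.09). This call was lost when any of 7 libraries was left out, namely repeats 1, 3 and 4 at pH 7.4 and repeats 1, 2, 3 and 4 at pH 6.9, with a log2 change of 0.39 to 0.48 and an adjusted p from 0.0528 to 0.151. It was also lost without the 2 libraries with the fewest genes (adjusted p = 0.257). Within repeats 1 and 2 the change was 0.35 (adjusted p = 0.423) and within repeats 3 and 4 it was 0.53 (adjusted p = 0.241). DUSP10 changed by -0.43 (adjusted p = 0.0975), SPRED1 by 0.37 (adjusted p = 0.204) and SPRY4 by 0.27 (adjusted p = 0.52) without passing. DUSP10 passed without repeat 3 (adjusted p = 0.0486) or repeat 4 (adjusted p = 0.045) at pH 6.4, with DESeq2 (adjusted p = 0.00898) and in a fit to only these 2 media (adjusted p = 0.0323). The groups did not overlap for 4 of the 10, DUSP1, DUSP6, DUSP10 and SPRY4, and for 10.1% of all genes. DUSP6 and SPRY4 lay higher without overlap, as did 5.18% of all genes.

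Between the acid media, 4 genes rose and 1 fell at pH 6.4 against pH 6.9, where 17.0% of all genes passed, 8.83% as higher and 8.20% as lower. On the log2 scale SPRY4 rose by 0.74 (SE 0.15; edgeR adjusted p = 0.00637), SPRY2 by 0.67 (SE 0.13; adjusted p = 0.00532), DUSP5 by 0.93 (adjusted p = 0.0245) and DUSP4 by 0.37 (adjusted p = 0.0429). DUSP10 changed by -0.41 (adjusted p = 0.0214). The SPRY2 and SPRY4 rises passed whichever single library was left out, while the other 3 calls did not. With all libraries and the repeat number as a block, DUSP4, DUSP5 and DUSP10 passed (edgeR adjusted p = 0.00151, 0.000784 and 0.00407). The omissions that follow were fitted without that block. DUSP4 did not pass without any one of repeats 1, 2, 3 and 4 at pH 6.9, repeats 2 and 3 at pH 7.4 or repeats 2 and 4 at pH 6.4 (log2 0.29 to 0.43, adjusted p from 0.0501 to 0.156). It also did not pass with scaling by library size alone (adjusted p = 0.0965), without the 2 libraries with the fewest genes (adjusted p = 0.0878) or in a fit to only these 2 media (adjusted p = 0.0547), nor did DUSP5 with no filter beyond 1 count (adjusted p = 0.139). DUSP5 was lost without repeat 1, 2 or 4 at pH 6.4 or repeat 3 or 4 at pH 6.9 (log2 0.70 to 0.94, adjusted p from 0.0501 to 0.0983), and DUSP10 without repeat 1 or 3 at pH 6.9 or repeat 2 or 4 at pH 6.4 (adjusted p from 0.0543 to 0.064). Within repeats 1 and 2 the changes of SPRY4, SPRY2, DUSP5, DUSP4 and DUSP10 were 0.78, 0.78, 0.95, 0.47 and -0.34, where DUSP10 did not pass (edgeR adjusted p = 0.101). Within repeats 3 and 4 they were 0.72, 0.55, 0.92, 0.31 and -0.46, where none of the 5 passed (edgeR adjusted p from 0.213 to 0.248).

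DUSP6 and SPRED1 did not pass between the acid media, with 0.24 (adjusted p = 0.0766) and 0.31 (adjusted p = 0.0945), although for both genes every pH 6.4 library lay above every pH 6.9 library. Such groups without overlap were found for 6 of the 10 genes in this comparison and for 20.4% of all genes, and as higher for 5 of the 10 and for 9.64%. With the repeat number as a block they passed (edgeR adjusted p = 0.0142 and adjusted p = 0.022), and 5456 genes passed in place of 2988. DESeq2 also called DUSP6 (adjusted p = 0.0362). SPRED1 also passed without repeat 1 at pH 7.4 (adjusted p = 0.0369), and without that library and repeat 3 at pH 6.4 together (adjusted p = 0.0496).

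The pH 6.9 level was also set against the midpoint of the outer media on the log2 scale. By edgeR 0 of the 17544 genes passed, a share of 0.00%, with 2025 at an unadjusted p under 0.05, among them SPRY2 as the only one of the 10 genes. DESeq2 called 102 genes, none of them among the 10, and limma voom 0. The estimates for SPRY2, DUSP5 and SPRY4 were -0.29, -0.32 and -0.24, that is nearer to pH 7.4 than the midpoint, and those for DUSP6, SPRED1 and DUSP10 were 0.10, 0.03 and -0.01. SPRY2 had an adjusted p of 0.382 with all libraries, and passed without repeat 3 at pH 6.4 (log2 -0.35, adjusted p = 0.0356).

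**Figure D3:**
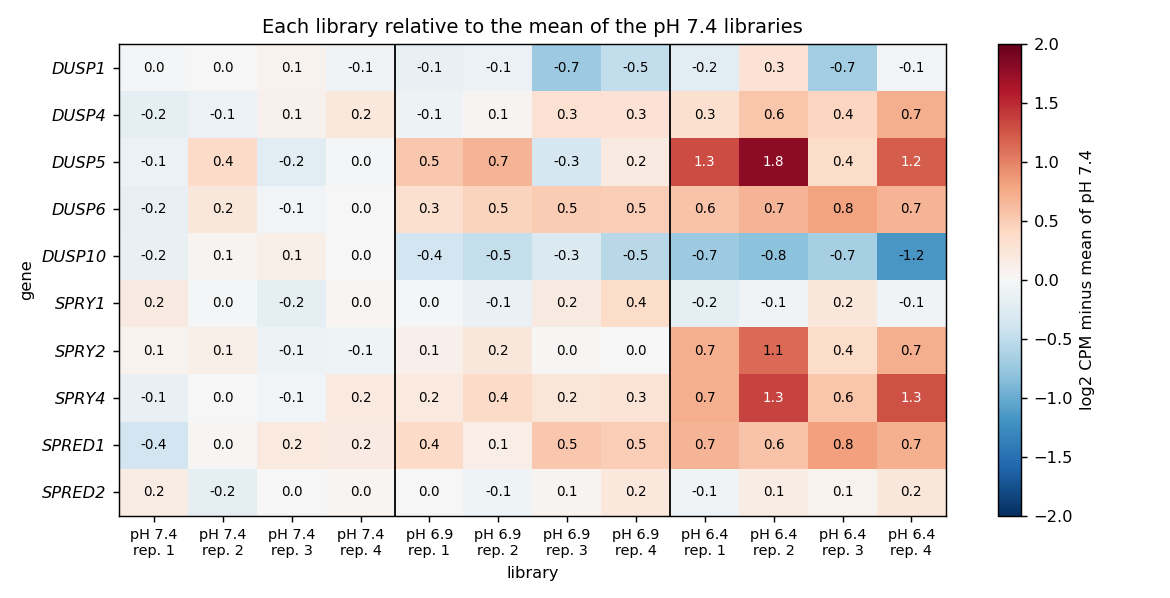
Log2 CPM of the 10 genes (rows) in each library (columns, vertical lines between media) minus the mean of the 4 pH 7.4 libraries; red is higher and blue lower. DUSP5, SPRY2 and SPRY4 are palest at pH 6.4 in repeat 3, the library in which DUSP6 and SPRED1 are reddest.

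The pH 6.4 libraries did not rank alike for all genes that rose. Repeat 3, which lay apart from the other pH 6.4 libraries on the second component, held the lowest level of its group for DUSP5 (56.8 CPM), SPRY2 (107 CPM), SPRY4 (114 CPM) and DUSP1 (44.9 CPM). The same library held the highest level of its group for DUSP6 (278 CPM), SPRED1 (102 CPM), SPRY1 (26.2 CPM) and DUSP10 (44.5 CPM). Repeat 2 held the highest level for DUSP5, SPRY2, SPRY4 and DUSP1. Across the 12 libraries, and so including the change between media, log2 CPM of SPRY2 correlated with that of DUSP5 (r = 0.94) and SPRY4 (r = 0.92), and DUSP6 with SPRED1 (r = 0.87), while SPRED1 correlated less with DUSP5 (r = 0.48). These coefficients describe libraries that share their media and scaling.

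Per kilobase of merged exon, DUSP4 had the highest mean of the 10 in every medium. It had 52.4 ± 6.59 CPM per kb at pH 7.4 and 74.5 ± 9.02 at pH 6.4 (SD, n = 4). At pH 7.4 it was followed by DUSP1 (36.01), DUSP6 (34.7), SPRY2 (27.6), DUSP10 (24.2), DUSP5 (17.1), SPRY4 (11.8), SPRED2 (9.52), SPRED1 (7.005) and SPRY1 (5.69 CPM per kb). Of these neighbours, DUSP1 and DUSP6, SPRY2 and DUSP10, DUSP10 and DUSP5, and SPRED1 and SPRY1 overlapped in their libraries. At pH 6.4 the order was DUSP4, DUSP6 (55.4), SPRY2 (46.5), DUSP5 (40.2), DUSP1 (32.9), SPRY4 (23.8), DUSP10 (13.5), SPRED1 (11.2), SPRED2 (10.1) and SPRY1 (5.60 CPM per kb). DUSP10 thus went from the fifth to the seventh place and DUSP1 from the second to the fifth, with DUSP6, SPRY2, DUSP5, DUSP1 and SPRY4 overlapping each with the next in this medium. DUSP10 also overlapped with SPRED1, and SPRED1 with SPRED2. At pH 6.9 the libraries of DUSP4 and DUSP6 overlapped, with means of 57.6 and 47.0 CPM per kb. SPRY1 had the lowest mean in all 3 media.

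The rest of the 2 families and the cascade around them were described from lists chosen by function. These lists were drawn up with earlier results of these data known, so their counts and medians are description only. Of 7 other family members 6 were tested, and 3 rose and none fell at pH 6.4 against pH 7.4. Of all genes 15.6% rose and 14.7% fell. The median log2 change was 0.82 for these 6, beside -0.00 for all genes. The p38 and JNK phosphatase DUSP16 rose from 16.6 ± 1.91 to 31.2 ± 7.14 CPM (SD, n = 4; log2 0.91, edgeR adjusted p = 0.000873) and SPRED3 from 12.5 to 20.7 CPM (log2 0.73). The third, DUSP8, another phosphatase of the stress kinases, was named after its value was seen because it lay under the 5 CPM set for naming, and went from 1.35 to 4.45 CPM (log2 1.72). DUSP10 therefore fell while 2 other genes for phosphatases of the stress kinases rose.

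Among 12 other inhibitors of receptors, RAS or ERK, 7 rose and 1 fell (median log2 0.37). Of all genes 15.6% rose and 14.7% fell. ERRFI1, which blocks the epidermal growth factor receptor and is itself induced by its signal, rose from 360.5 ± 24.4 to 1318 ± 360.2 CPM (SD, n = 4; log2 1.87, edgeR adjusted p = 4.91e-06), more than any of the 10 genes. RASA1, a RAS inactivator, rose by 1.60 and LRIG1, which promotes the breakdown of ERBB receptors, by 0.74. DAB2IP, another RAS inactivator, was the gene that fell, by 0.92. Of 23 genes from the receptors to ERK, 9 rose and 1 fell (median log2 0.17), where 30.3% of all genes passed in either direction. ERBB3, the adaptor SHC1, the kinase BRAF and the RAS activator SOS1 rose by 0.81, 0.66, 0.62 and 0.51, and HRAS fell by 0.33. Without repeat 3 at pH 6.4, 11 genes of this list rose and 2 fell, where 35.8% of all genes passed in either direction.

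Of 15 genes known to be induced through ERK, 9 rose and 3 fell at pH 6.4 (median log2 0.61, near that of the 10 genes). Of all genes 15.6% rose and 14.7% fell. EGR1, an immediate early factor, rose by 1.41, FOSL1, an AP-1 subunit, by 1.11, PHLDA1 by 0.93 and MYC by 0.85. The 3 that fell, named after their values were seen, were the ephrin receptors EPHA4 and EPHA2 and the cyclin CCND1, with -0.74, -0.43 and -0.38. The immediate early gene FOS did not pass, with -0.64 (edgeR adjusted p = 0.106). Nor did IER2, with 0.18 (adjusted p = 0.246), and EGR3, with 1.87 (adjusted p = 0.0668), which did not exceed 0.669 CPM. These lists and the one of p38 and JNK kinases held 65 tested genes. At pH 6.9 against pH 7.4, 0 of the 65 passed by edgeR or limma voom, where 0.724% and 0.787% of all genes passed. At an unadjusted p under 0.05 in edgeR there were 13 of the 65, and the share of all genes at that level is not given here. DESeq2 called 4 of the 65, ERRFI1, RASA1, PHLDA1 and MAPK13, and 559 of the 17544 genes. At pH 6.4 against pH 6.9, 3 of 6 other family members, 4 of 12 inhibitors, 6 of 23 cascade genes and 6 of 15 induced genes rose, and 0, 1, 0 and 2 fell, where 8.83% of all genes rose and 8.20% fell.

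**Figure D4:**
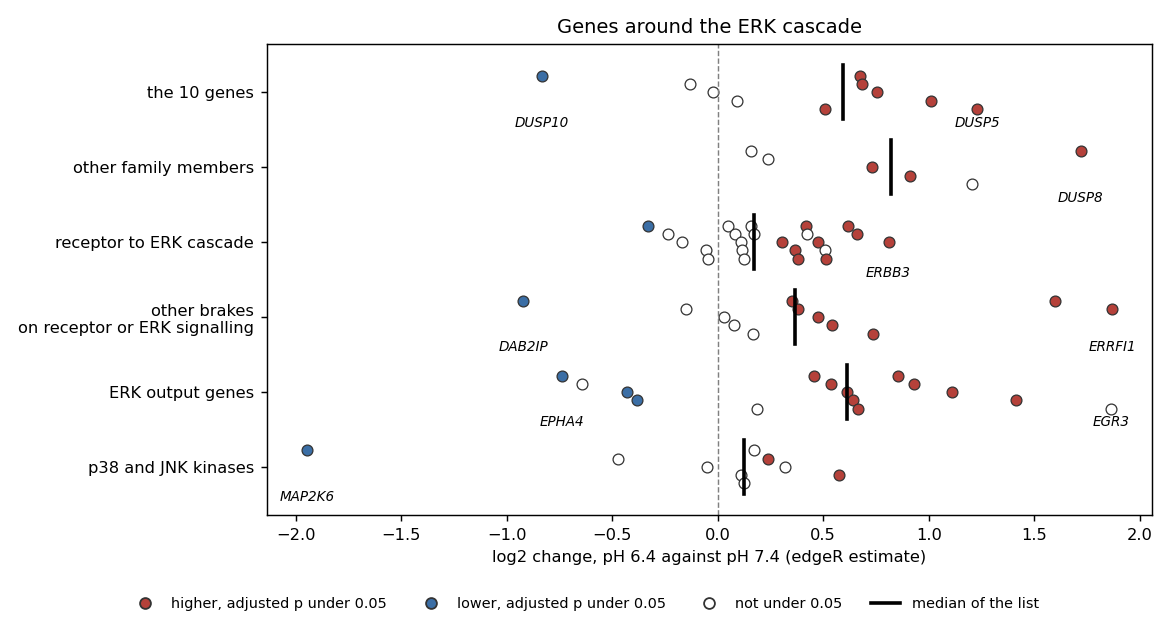
Log2 change at pH 6.4 against pH 7.4 for the 10 genes and for the tested genes of 5 lists around the cascade, 1 circle per gene with the list median as a black bar; red and blue circles passed an adjusted p under 0.05 as higher and lower, open circles did not. ERRFI1 lies farthest right among inhibitors at 1.87, and MAP2K6 farthest left of all at -1.95.

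For each of the 10 genes, the gene whose log2 CPM followed it most closely over the 12 libraries was taken from those with a mean of at least 5 CPM. These were TM4SF1 for SPRY2 (r = 0.99), ECPAS for DUSP5 (r = 0.99), SRSF4 for SPRY4 (r = 0.99), TRAF7 for DUSP4 (r = 0.98), KITLG for DUSP10 (r = 0.98), GPR135 for SPRED1 (r = 0.97), CFAP97 for DUSP6 (r = 0.97), HSPA4 for DUSP1 (r = 0.93), CORO2A for SPRED2 (r = 0.87) and SENP1 for SPRY1 (r = 0.82). Each is the highest of many coefficients and describes these libraries only. KITLG, the ligand of the receptor KIT, fell by 0.58 from pH 7.4 to pH 6.4 (edgeR adjusted p = 0.000487). Without repeat 1 at pH 7.4 the same pairs had r from 0.81 to 0.99.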

How the data were processed

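Per the submitters' processing notes, STAR and featureCounts were used with the build GRCh38.p13 (hg38), and raw counts of 60664 genes from stranded poly(A) libraries were deposited. The sources used here give no tool versions, strand setting or handling of multiply mapped reads. Rows without a symbol held at most 0.424% of the counts.

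From these counts, genes were kept by filterByExpr (17544), scaled by TMM and tested with edgeR 4.0.16 (robust quasi-likelihood, R 4.3.3) in 1 fit of the 12 libraries (9 residual degrees of freedom), adjusted by Benjamini-Hochberg over all genes. The threshold was an adjusted p under 0.05. Standard errors are the log2 change over the square root of the F statistic. The 95% intervals use these standard errors and Student's t on the 9 residual degrees of freedom. They can thus be wider than the p-values of the test imply. DESeq2 1.42.0 and limma 3.58.1 (voom) were alternatives. Principal components and correlations used log2 CPM with a prior count of 2. Exon lengths are merged exons of GENCODE 29. The members and lists were chosen with earlier results of these data known. All 10 genes are named. From each list up to 4 called genes are named, by size of the change from pH 7.4 to pH 6.4 and with at least 5 CPM, and those of a direction with 2 or fewer. FOS, EGR3, IER2 and MAPK14 did not pass and are named outside this rule. On simulated counts of 17226 genes for pH 6.4 against pH 7.4, the test called 32.8% of 67 genes given a 1.5-fold change, 70.1% of 67 given 2-fold, 86.4% of 66 given 4-fold, and 0.0411% of the others. The altered genes were a far smaller part of all genes than the 30.3% that passed in the data. The adjusted threshold depends on that part, so these shares may not hold for the data.

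As a check of pairing, deviations from group means of libraries with the same repeat number correlated across genes at 0.113 to 0.262 between pH 7.4 and pH 6.4 and at 0.264 to 0.470 between pH 6.9 and pH 6.4. Repeat numbers come from the labels. Between pH 6.9 and pH 6.4, 8 of 8 libraries correlated best with their own number, but between pH 7.4 and pH 6.4 only 5 of 8. Pairing by number is therefore less clear between pH 7.4 and pH 6.4. The values reported come from the fit without the block unless a sentence names it. In each of the 66 pairs of libraries, the counts of at least 22391 genes differed. No library was thus a copy of another, but this does not show whether the repeats are separate cultures.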

Additional observations from a re-analysis of the deposited data

How the results depend on the processing

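Results were recomputed with other scalings, filters and tools, a replicate block, subsets of repeats and each library left out. From pH 7.4 to pH 6.4, DUSP6, DUSP10, SPRY2 and SPRED1 passed in all 24 alternatives, and DUSP4, DUSP5 and SPRY4 in 23, the exception being repeats 3 and 4 alone (4 of the 10 genes and 1528 genes in all). Leaving out single libraries gave 7 to 7 of the 10 genes and 3795 to 6411 genes, fewest without repeat 2 and most without repeat 3 at pH 6.4. Scaling by library size alone shifted the median of all genes by -0.08 from pH 7.4 to pH 6.4 and lowered the share of higher genes among those called from 51.4% to 40.4%, and from 51.9% to 38.2% for pH 6.4 against pH 6.9. The cause of these differences was not tested.

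At pH 6.9 against pH 7.4, where same-numbered repeats correlated at 0.0798 to 0.352 and 5 of 8 libraries best with their own number, the replicate block gave 947 genes in place of 127 and 3 of the 10 (DUSP6, DUSP10 and SPRED1). DESeq2 gave 559 and 2, the fit to only the groups compared 250 and 2, no filter 201, the fit without repeat 1 at pH 7.4 and repeat 3 at pH 6.4 together (added after seeing the data) 216 and 2, and that without the 2 libraries with the fewest genes 20 and 0. Repeats 1 and 2 gave 7 and 0, repeats 3 and 4 gave 0 and 0 by edgeR with 1194 at an unadjusted p under 0.05. Single libraries left out gave 39 to 306 genes, fewest without repeat 3 at pH 7.4 and most without repeat 3 at pH 6.4, and 0 to 2 of the 10.

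At pH 6.4 against pH 6.9 the replicate block gave 5456 genes, the joint omission of those libraries 6186, repeats 1 and 2 gave 1906, and repeats 3 and 4 gave 0 genes and 0 of the 10, with 3161 at an unadjusted p under 0.05. Single libraries left out gave 1171 to 4944 genes, fewest without repeat 2 and most without repeat 3 at pH 6.4, and 2 to 6 of the 10. The replicate block changed no other call of the 10 genes.

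Signs turned only where the change was not called. From pH 7.4 to pH 6.4, DUSP1 was 0.0668 in repeats 1 and 2 and 0.0165 with the joint omission, with -0.302 to 0.0222 over single omissions (highest without repeat 3 at pH 6.4), and SPRY1 was 0.163 in repeats 3 and 4 and 0.0400 without the 2 libraries with the fewest genes, with -0.110 to 0.0386 over single omissions (above 0 without repeat 1 at pH 6.4 or pH 7.4). At pH 6.9 against pH 7.4 in repeats 1 and 2, SPRY1 was -0.162 and SPRED2 -0.0332, and SPRED2 ranged from -0.0173 to 0.0994 over single omissions. At pH 6.4 against pH 6.9, SPRED2 was -0.0342 by library size alone and -0.00282 to 0.110 over single omissions. Against the midpoint, library size alone gave 0.0270 for DUSP10 and 0.0373 for SPRED2, repeats 1 and 2 gave -0.0645 for SPRY1, repeats 3 and 4 gave 0.0439 for SPRED2, and SPRED2 was 0.0665 without the 2 libraries with the fewest genes and 0.0210 with the joint omission. Single omissions there gave -0.0543 to 0.0305 for DUSP10, -0.0212 to 0.109 for SPRED1 and -0.0635 to 0.0398 for SPRED2.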

Other observations

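Kinases of the stress pathways that DUSP10, DUSP8 and DUSP16 act on were looked at beside the phosphatases. Of 9 p38 and JNK kinase genes, 2 rose and 1 fell from pH 7.4 to pH 6.4 (median log2 0.13), where 30.3% of all genes passed in either direction. MAPK13, a p38 kinase, rose from 103 ± 11.4 to 153 ± 12.7 CPM (SD, n = 4; log2 0.57, edgeR adjusted p = 0.0012), and MAPK8, a JNK kinase, rose by 0.24 (adjusted p = 0.0179). MAP2K6, which activates p38, fell by 1.95 (adjusted p = 0.0105) from 5.21 ± 0.64 to 1.34 ± 1.46 CPM, with an SD at pH 6.4 larger than the mean. MAPK14, the p38 kinase with the highest CPM of the list, had 243 and 273 CPM and did not pass. Without repeat 1 at pH 7.4, 2 of the 9 rose and 2 fell, where 29.7% of all genes passed in either direction.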
